A study of Rattus norvegicus with 9 samples.

Results

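Zfp is the rodent symbol for genes that encode zinc finger proteins. The genes described here are those typed as mRNA in the count table whose symbol is Zfp followed by a number, with at least 450 counts summed over the 9 rats. There were 212 such genes among 262 mRNA symbols of that form and 37209 genes in all, and all 212 passed the filter on low counts that left 16837 genes for testing. The remaining 50 symbols had fewer counts. The genes nearest to the limit inside it were Zfp260 with 517 counts, Zfp469 with 489 and Zfp966 with 456, and those nearest outside it were Zfp575 with 437, Zfp521 with 428 and Zfp541 with 404. The symbol, not the protein, defines the group. By RefSeq, 8 of the members now carry another symbol, and Zfp238, for one, is now called Zbtb18. The shared name need not mean a shared function.

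RNA had been sequenced from the frontal cortex of 9 male Wistar rats at 14 weeks of age, with 3 rats per group and no genetic alteration. Control rats (1, 2 and 6) stayed with their dams without disturbance. MS rats (3, 4 and 6) had been separated from their dams for 4 h a day from postnatal day (PND) 1 to PND 21. MS+EA rats (3, 10 and 16) had the same separation and then electroacupuncture (EA), which passes a weak current through acupuncture needles, at the points GV20 and GV29 every other day from PND 61 to PND 81. EA was given under anaesthesia, which Control and MS rats received as well. No sham EA group and no unseparated EA group was sequenced. MS+EA rats therefore differ from Control rats in both separation and EA, and the needling and the current cannot be told apart.

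Most zinc finger proteins of this kind bind DNA through rows of C2H2 fingers, in which cysteines and histidines hold a zinc ion. Many also carry a KRAB domain that recruits Trim28, Setdb1 and heterochromatin proteins, and these silence retroelements and nearby genes. Others act elsewhere: the Zfp36 proteins have CCCH fingers and send mRNAs with AU-rich elements to decay, and further members act on the ribosome, on splicing or on the mitotic spindle.

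Expression is given as CPM, the counts of a gene scaled to the TMM-normalized size of each library. CPM is not corrected for transcript length, so levels are compared between rats and not between genes. Differences are log2 fold changes with standard errors (SE) from edgeR's quasi-likelihood model of all 9 rats, and adjusted p-values are Benjamini-Hochberg values over all genes tested. They set each difference against the spread between the rats of a group. Separation was applied to dams with their litters, and the litter of each rat is not given in the sources used here. Rats of a group may be littermates, so this spread need not be that between independent litters. In bulk tissue, fewer cells of a type and less RNA per cell cannot be told apart. Total counts were 16153292 to 19007907 per Control rat, 16106381 to 17243320 per MS rat and 12479905 to 14913736 per MS+EA rat, so the MS+EA libraries were the shallowest. All 6 neuronal and all 5 cortical projection neuron markers were detected, with the latter summing to 502 to 620 CPM over the 9 rats. Striatal markers summed to no more than 32.2 CPM. Genes of the hypothalamus (Oxt and Avp) stood out in 1 rat, MS rat 4, whose library holds 258 counts of Oxt against at most 25 in the other rats. The long non-coding RNA share of all counts was 0.798% to 0.908% in Control rats, 0.852% to 0.964% in MS rats and 0.976% to 1.14% in MS+EA rats. It was highest among MS+EA rats, and its part in the results was not tested.

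The Zfp genes together took under 1% of the reads. The 212 genes held 0.775%, 0.803% and 0.792% of the counts among Control rats, 0.810%, 0.811% and 0.810% among MS rats, and 0.836%, 0.858% and 0.818% among MS+EA rats. The groups did not overlap and stood in the order Control, MS, MS+EA. No test was made of this share. The mean CPM of a member ranged from 3.19 to 492 with a median of 20.3, beside a median of 28.9 for the 11944 mRNAs with as many counts. The median SD of log2 CPM within groups was 0.134 over the members and 0.133 over those mRNAs.

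The rats differed most between Control and MS+EA. In that comparison 21 members (9.91%) passed an adjusted p under 0.05, and 20 of them were higher among MS+EA rats. The background was 910 of 16837 genes (5.4%), with 3.21% called higher and 2.19% called lower, and among mRNAs with at least 450 counts it was 6.71%. The members were thus 9.43% called higher and 0.472% called lower. With a fold change above 1.5 as well, 7 members passed, beside 1.37% of all genes. These 7 were Zfp758, Zfp606, Zfp52, Zfp366, Zfp458, Zfp347 and Zfp40, all of them higher. The count depends on single rats. It was 5 without Control rat 1, 13 without Control rat 2 (12 of them among the 21), 11 without Control rat 6 and 9 without MS+EA rat 10. Over all genes, the count of 910 became 112, 554, 297 and 334 in the same fits.

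Markers of other cell types were measured in the same comparison. Of the 6 neuronal markers 1 passed, Slc17a7, the vesicular glutamate transporter of cortical excitatory neurons, which was lower in every MS+EA rat than in every Control rat (log2 fold change -0.30 ± 0.06, adjusted p = 0.0207). The 6 markers summed to 5700 to 5810 CPM among Control rats and 4910 to 6180 CPM among MS+EA rats. The 2 blood genes tested summed to 15.7 to 28.5 CPM among Control rats, 34.7 to 52.0 among MS rats and 27.1 to 58.4 among MS+EA rats. Hbb, a globin of red cells, had a log2 fold change of 0.90 ± 0.27 in MS+EA against Control rats (adjusted p = 0.0728). The part of these markers in the results was not tested.

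**Figure D1:**
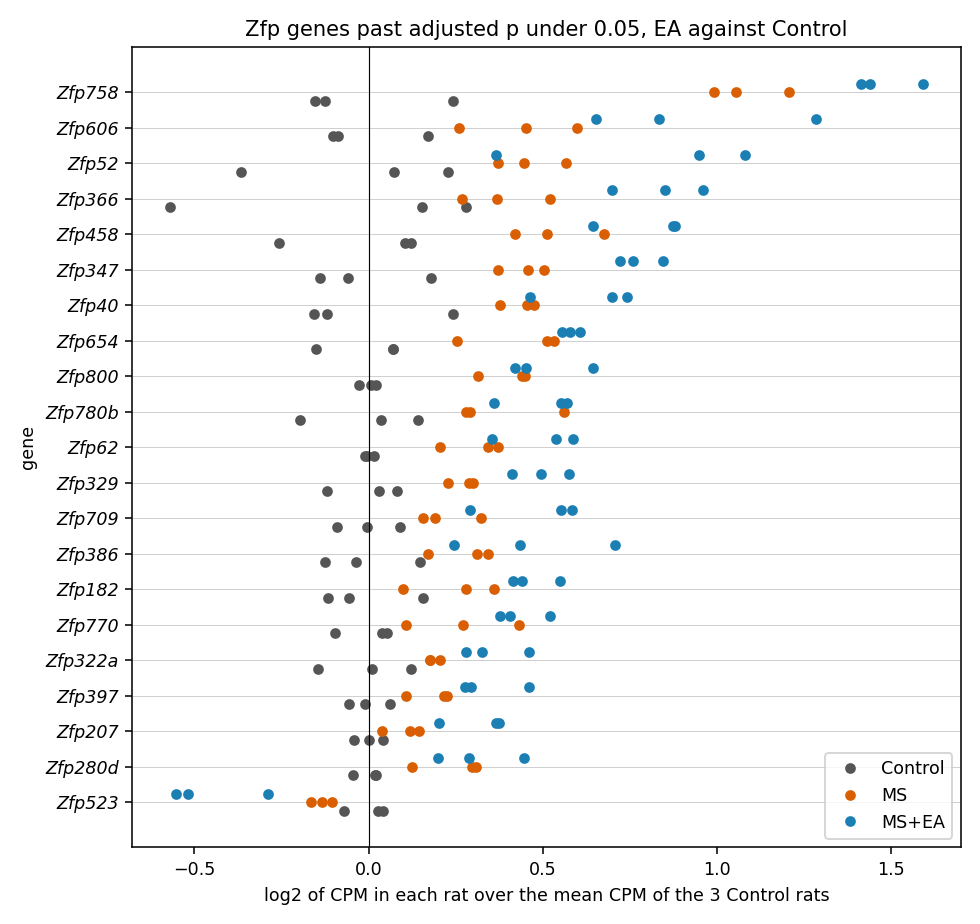
Level of the 21 Zfp genes past an adjusted p under 0.05 in MS+EA against Control rats, as the log2 of the CPM of each rat over the mean CPM of the 3 Control rats (horizontal axis), with 1 point per rat and 1 colour per group. In 20 genes the MS+EA rats lie to the right of all Control rats and in Zfp523 to the left, and the MS rats mostly lie between. The genes were picked by the test on these Control and MS+EA rats, so their separation is no further support.

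Of the 21, 5 passed an adjusted p under 0.05 in all 9 alternative fits and in all 9 fits with a rat left out, and these were Zfp758, Zfp347, Zfp654, Zfp329 and Zfp458. Zfp654 and Zfp329 did not reach a fold change of 1.5. The 250 bases before the start of transcription of these genes, and of Zfp523, the only member called lower by edgeR's quasi-likelihood test, are shown because they are the sequence next to the genes whose mRNA moved. They are from RefSeq on GRCr8, not on the build of the counts, and read from 5′ to 3′ in the direction of transcription. Where RefSeq lists several starts, the one farthest upstream was taken, which applies to Zfp758 (3 starts) and Zfp458 (2 starts). Capitals mark exact matches, on either strand, to 7 short motifs that are spelled out below. The regions are chr1:70662262-70662511, reverse strand for Zfp758, chr7:8117749-8117998, forward strand for Zfp347, chr11:15990834-15991083, reverse strand for Zfp654, chr1:82494202-82494451, reverse strand for Zfp329, chr2:86401264-86401513, forward strand for Zfp458 and chr20:6245078-6245327, forward strand for Zfp523.
Zfp758: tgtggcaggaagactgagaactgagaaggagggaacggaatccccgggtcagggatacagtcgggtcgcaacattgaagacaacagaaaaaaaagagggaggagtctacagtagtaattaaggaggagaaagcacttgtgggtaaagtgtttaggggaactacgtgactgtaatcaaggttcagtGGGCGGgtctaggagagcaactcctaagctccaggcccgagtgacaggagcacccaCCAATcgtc
Zfp347: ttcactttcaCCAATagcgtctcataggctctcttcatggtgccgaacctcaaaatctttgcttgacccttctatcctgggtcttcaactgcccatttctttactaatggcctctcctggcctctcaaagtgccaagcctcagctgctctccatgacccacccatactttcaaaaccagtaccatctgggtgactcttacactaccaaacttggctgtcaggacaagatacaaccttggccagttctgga
Zfp654: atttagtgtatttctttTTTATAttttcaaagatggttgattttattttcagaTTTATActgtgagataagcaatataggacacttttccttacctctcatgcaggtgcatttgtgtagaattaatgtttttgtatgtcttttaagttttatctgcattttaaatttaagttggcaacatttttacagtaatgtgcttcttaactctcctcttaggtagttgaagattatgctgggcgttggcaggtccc
Zfp329: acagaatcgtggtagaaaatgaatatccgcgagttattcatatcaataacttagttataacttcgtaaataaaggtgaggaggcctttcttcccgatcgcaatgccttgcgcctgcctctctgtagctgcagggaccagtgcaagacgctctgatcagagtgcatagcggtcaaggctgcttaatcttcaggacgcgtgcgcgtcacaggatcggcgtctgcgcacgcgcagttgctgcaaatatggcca
Zfp458: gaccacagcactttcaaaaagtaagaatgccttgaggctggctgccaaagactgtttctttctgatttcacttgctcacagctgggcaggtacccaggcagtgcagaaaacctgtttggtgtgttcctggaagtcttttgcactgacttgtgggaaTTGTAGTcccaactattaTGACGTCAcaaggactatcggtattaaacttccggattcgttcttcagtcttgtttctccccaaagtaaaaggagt
Zfp523: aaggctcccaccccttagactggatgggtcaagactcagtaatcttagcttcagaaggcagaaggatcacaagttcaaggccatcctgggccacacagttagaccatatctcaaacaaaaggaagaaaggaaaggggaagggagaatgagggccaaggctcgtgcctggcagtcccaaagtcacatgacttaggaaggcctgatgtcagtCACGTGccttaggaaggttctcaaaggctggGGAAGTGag

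The windows differ widely. That of Zfp654 holds 31.6% G and C and 1 CpG, while that of Zfp329 holds 50.4% and 18 CpG. Matches to CCAAT (the NF-Y box) are found for Zfp347 and Zfp758, to GGGCGG (a GC box) for Zfp758, to TATAAA for Zfp654, to CACGTG (an E-box) and GGAAGTG (an ETS core) for Zfp523, and to TGACGTCA (a cyclic AMP response element) and ACTACAA for Zfp458. None of the 7 motifs is in the window of Zfp329. No motif is shared by all 6 windows.

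Zfp758 rose the most of all members. Its CPM was 3.05, 2.32 and 2.36 among Control rats, 5.95, 5.13 and 5.35 among MS rats and 6.87, 7.77 and 7.0 among MS+EA rats. The lowest MS rat stood above the highest Control rat, and the lowest MS+EA rat above the highest MS rat. It was 2.79-fold higher in MS+EA than in Control rats (log2 fold change 1.48 ± 0.19, adjusted p = 0.00374). It has few reads, 709 counts over the 9 rats, and RefSeq places the similarly named Zfp758l1 beside it, whose reads the counting could share. Zfp347 was at 13.5, 12.8 and 16 CPM among Control rats, 18.3, 20.0 and 19.4 among MS rats and 23.9, 25.3 and 23.3 among MS+EA rats. The 3 groups again formed separate steps, and the log2 fold change of MS+EA against Control was 0.78 ± 0.11 (adjusted p = 0.00576).

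Zfp654 and Zfp329 also stood in 3 steps without overlap. Zfp654 was at 42.9, 36.8 and 42.9 CPM among Control rats, 48.7, 59.1 and 58.3 among MS rats and 61, 62.3 and 60.0 among MS+EA rats. The MS+EA rats were close together, and the log2 fold change against Control was 0.58 ± 0.09 (adjusted p = 0.00847). Zfp329 was at 38.4, 44.2 and 42.6 CPM among Control rats, 48.9, 51.3 and 51.0 among MS rats and 55.5, 62.2 and 58.8 among MS+EA rats, with a log2 fold change of 0.50 ± 0.08 (adjusted p = 0.00856). In RefSeq the span of Zfp329 overlaps that of Zfp110, the member that encodes NRIF, a partner of the neurotrophin receptor p75. As no source used here states that the counting used strand, reads of the pair cannot be told apart. Zfp110 had mean values of 25.9, 31.8 and 29.9 CPM in the Control, MS and MS+EA rats and did not pass (log2 fold change of MS+EA against Control 0.21 ± 0.09, adjusted p = 0.185).

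Zfp458 was at 7.92, 6.10 and 7.83 CPM among Control rats, 10.4, 11.6 and 9.74 among MS rats and 11.4, 13.4 and 13.4 among MS+EA rats. The Control rats were below all others, while the MS and MS+EA rats overlapped. Its log2 fold change in MS+EA against Control rats was 0.80 ± 0.15 (adjusted p = 0.0137). Its span overlaps that of Zfp455, a related member at 3.27, 4.07 and 4.54 mean CPM in the 3 groups, so reads of the 2 genes are uncertain.

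Zfp606, a KRAB zinc finger repressor, reached its highest values among MS+EA rats. It was at 18.4, 18.2 and 22.0 CPM among Control rats, 23.4, 26.8 and 29.6 among MS rats and 34.8, 47.6 and 30.8 among MS+EA rats. The groups did not overlap, and MS+EA rat 10 stood well above the other rats. The log2 fold change of MS+EA against Control was 0.95 ± 0.15 (adjusted p = 0.00856), and without Control rat 1 the adjusted p was 0.0506. Zfp366, known as DC-SCRIPT, a corepressor of nuclear receptors in dendritic cells, was at 7.06, 6.46 and 3.92 CPM in the Control rats and at 11.3, 9.45 and 10.5 among MS+EA rats (log2 fold change 0.84 ± 0.20, adjusted p = 0.0348). It passed in 2 of 9 analyses with a rat left out. Zfp52 had the same size of change (0.84 ± 0.20, adjusted p = 0.0341) and passed in 5 of 9.

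Zfp207 was the member with most reads among the 21. It encodes BuGZ, which binds Bub3 at kinetochores and also occurs with splicing factors. It was at 136, 140 and 144 CPM among Control rats, 152, 144 and 155 among MS rats and 181, 180 and 161 among MS+EA rats. The MS+EA rats stood above all others, and the log2 fold change against Control was 0.32 ± 0.07 (adjusted p = 0.0224). Zfp280d, with 93.6 to 98.0 CPM in the Control rats and 111 to 132 CPM among MS+EA rats, rose by a similar size (0.32 ± 0.08, adjusted p = 0.0387). The remaining members that rose were Zfp40, Zfp62, Zfp800, Zfp182, Zfp709, Zfp770, Zfp780b, Zfp386, Zfp322a and Zfp397. Their log2 fold changes lay between 0.35 for Zfp397 and 0.64 for Zfp40, and in each of them the lowest MS+EA rat was above the highest Control rat. These genes were picked by the test on the same rats, so this separation is no further support. Zfp397 was the least stable of the 21 and passed in none of the 9 analyses with a rat left out by edgeR's quasi-likelihood test, at an adjusted p of up to 0.160.

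Zfp523 was the only member that passed in the downward direction by edgeR's quasi-likelihood test. DESeq2 called 28 members, of which 25 were higher, beside 1476 of 16833 genes. The direction over all genes was not counted by DESeq2. Zfp523 is the counterpart of human ZNF76, a relative of the promoter-binding activator ZNF143. Its CPM was 87.8, 81.2 and 86.9 among Control rats, 79.4, 77.7 and 76.1 among MS rats and 69.8, 59.6 and 58.2 among MS+EA rats. The 3 groups did not overlap and stood in falling order. The log2 fold change was -0.45 ± 0.08 in MS+EA against Control rats (adjusted p = 0.0116), -0.31 ± 0.08 in MS+EA against MS rats (adjusted p = 0.210) and -0.13 ± 0.08 in MS against Control rats (adjusted p = 0.567). Without Control rat 1 its adjusted p in MS+EA against Control was 0.0619.

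At an unadjusted p under 0.05, 40 members (18.9%) were higher and 12 (5.66%) lower in MS+EA than in Control rats, beside 11.9% and 10.6% of all genes. Scaled to total counts, the split was 47 higher and 7 lower. The split over all genes was not counted under that scaling, but their median log2 fold change was then 0.0337, beside 0.0055 with TMM. The members with the smallest p on the lower side after Zfp523 included Zfp629, at 45.1, 47.7 and 45.5 CPM in the Control rats and 37.9, 37.4 and 37.0 among MS+EA rats (log2 fold change -0.30 ± 0.08, adjusted p = 0.0551). Zfp423, a partner of the EBF transcription factors in neural development, had mean values of 59.1 CPM in Control and 42.9 CPM in MS+EA rats (-0.46 ± 0.14, adjusted p = 0.0728). Zfp592, which binds ZMYND8, Zfp609, Zfp641, Zfp358 and Zfp787 had log2 fold changes from -0.40 to -0.18 without overlap of the groups, and none of them passed. The median log2 fold change was 0.06 over the members and 0.01 over all genes. It moved between 0.02 and 0.09 over the alternatives and stayed above 0 in each.

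**Figure D2:**
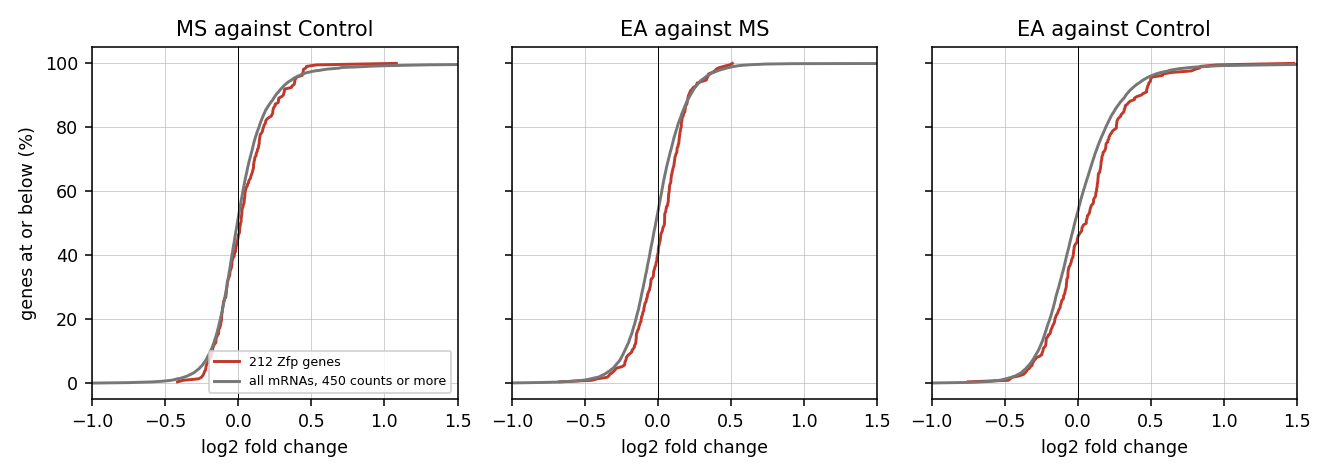
Cumulative share of genes (vertical axis, %) at or below a log2 fold change (horizontal axis, cut at -1 and 1.5) for the 212 Zfp genes and the 11944 mRNAs with at least 450 counts, in the 3 comparisons. The curve of the Zfp genes lies mostly to the right of the other; 54.7% of the Zfp genes and 46.4% of those mRNAs had a log2 fold change above 0 in MS+EA against Control.

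Whether separation alone moved these genes was asked by comparing MS with Control rats. No member passed an adjusted p under 0.05 by edgeR's quasi-likelihood test, beside 0.0238% of all genes, and none by limma-trend, beside 0.0416%. DESeq2 called 3 members (Zfp758, Zfp654 and Zfp367), beside 1.09% of all genes. At an unadjusted p under 0.05, 27 members (12.7%) were higher and 3 (1.42%) lower in MS rats, beside 7.06% and 3.55% of all genes. Zfp758 came closest, with a log2 fold change of 1.08 ± 0.19 and an adjusted p of 0.0578. The MS rats were 2.12-fold higher. Zfp654 followed with 0.44 ± 0.09 (adjusted p = 0.116).

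Zfp367 differed from those in not rising further among MS+EA rats. It was at 15.8, 16.1 and 17.1 CPM among Control rats, 23.5, 21.7 and 22.4 among MS rats and 18.6, 21.5 and 21.9 among MS+EA rats. All MS rats were above all Control rats, with a log2 fold change of 0.46 ± 0.10 (adjusted p = 0.129 by edgeR's quasi-likelihood test and 0.0301 by DESeq2). Zfp68 had mean values of 48.9, 60.8 and 60.4 CPM in the Control, MS and MS+EA rats, and the log2 fold changes against Control were 0.32 ± 0.08 in MS rats (adjusted p = 0.186) and 0.31 ± 0.08 in MS+EA rats (adjusted p = 0.0549). Zfp347, Zfp800, Zfp40 and Zfp458 were also higher in every MS rat than in every Control rat, by log2 fold changes of 0.40 to 0.54. No blood or endothelial marker passed the test in this comparison. Hbb was higher in every MS rat than in every Control rat (log2 fold change 0.87 ± 0.27, adjusted p = 0.256), and 3 endothelial markers summed to 72.1 to 85.6 CPM among Control rats and 91.4 to 104 CPM among MS rats. Their part in the results was not tested.

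On the lower side the differences were smaller. Zfp90 was at 10.7, 14.4 and 10.5 CPM among Control rats, 9.74, 8.63 and 8.96 among MS rats and 11.5, 11.1 and 12.1 among MS+EA rats. The MS rats were below all others, with log2 fold changes of -0.38 ± 0.15 against Control (adjusted p = 0.375) and 0.34 ± 0.15 in MS+EA against MS (adjusted p = 0.373). Zfp592 (-0.19 ± 0.07) and Zfp511 (-0.42 ± 0.17) were the other members at an unadjusted p under 0.05. Zfp827, Zfp512b, Zfp335 (a gene of human microcephaly) and Zfp259, now Zpr1, had log2 fold changes of -0.18 to -0.13 without overlap of the groups. The median log2 fold change was 0.02 over the members and -0.0014 over all genes.

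Whether EA moved the genes in separated rats was asked by comparing MS+EA with MS rats, which gave the smallest counts. No member passed an adjusted p under 0.05 by edgeR's quasi-likelihood test, DESeq2 or limma-trend, beside 0.0178%, 0.778% and 0.0238% of all genes. At an unadjusted p under 0.05, 12 members (5.66%) were higher and 7 (3.30%) lower in MS+EA rats, beside 6.01% and 6.42% of all genes. Scaled to total counts, the split was 21 higher and 3 lower. The split over all genes was not counted under that scaling, but their median log2 fold change was then 0.0432, beside 0.0006 with TMM. The smallest p belonged to Zfp523 on the lower side. On the higher side it belonged to Zfp606 (log2 fold change 0.51 ± 0.15, adjusted p = 0.245), Zfp207 (0.21 ± 0.07, adjusted p = 0.260), Zfp563 (0.39 ± 0.13, adjusted p = 0.274) and Zfp347 (0.33 ± 0.11, adjusted p = 0.275). Zfp329, Zfp667 and Zfp869 were also higher in every MS+EA rat than in every MS rat, with log2 fold changes of 0.22 to 0.49.

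Zfp407 had its highest values in the MS rats alone. It was at 17.0, 15.2 and 15.9 CPM among Control rats, 19.6, 23.5 and 19.8 among MS rats and 13.5, 18.0 and 15.7 among MS+EA rats. All MS rats stood above all others, with a log2 fold change of 0.39 ± 0.13 against Control (adjusted p = 0.277) and of -0.42 ± 0.13 in MS+EA against MS (adjusted p = 0.253). Zfp385a, an RNA-binding zinc finger protein, had mean values of 44.7, 50.1 and 42.8 CPM in the same order of groups, and the MS rats stood above all others. Zfp9, Zfp423, Zfp365, Zfp524 and Zfp428 were lower in every MS+EA rat than in every MS rat, with log2 fold changes of -0.46 to -0.16. None passed. The median log2 fold change was 0.04 over the members and 0.0006 over all genes.

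**Figure D3:**
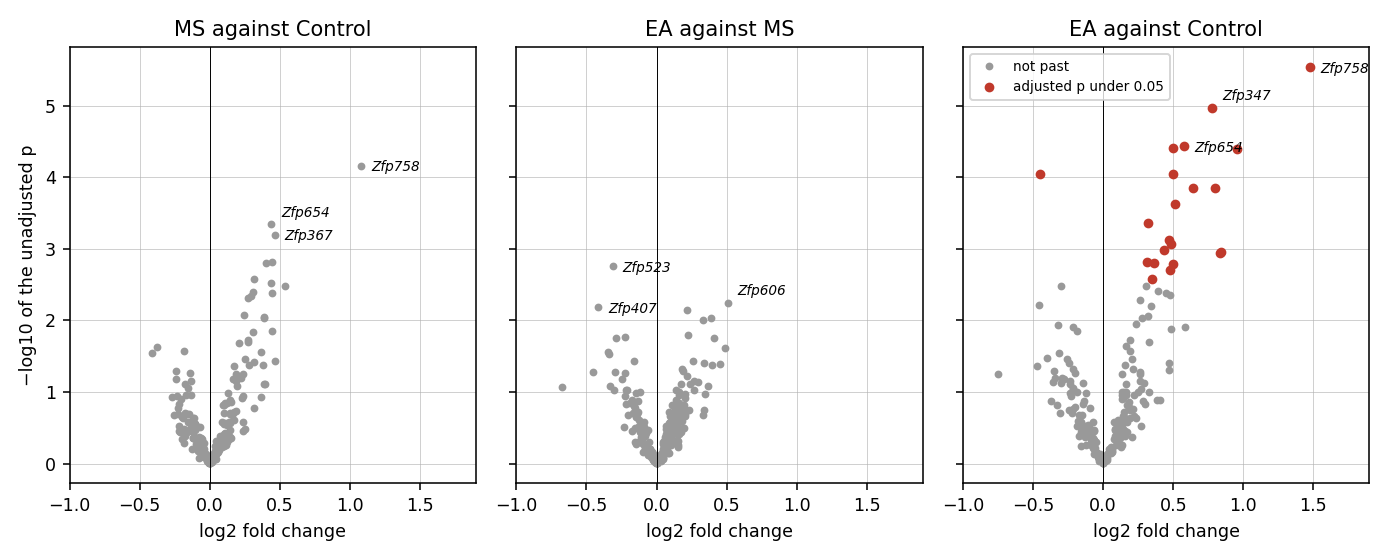
Log2 fold change (horizontal axis) and −log10 of the unadjusted p of edgeR's quasi-likelihood test (vertical axis) of the 212 Zfp genes in the 3 comparisons, 1 point per gene, with the 3 smallest p in each named. Red points mark an adjusted p under 0.05, of which there are 21 in MS+EA against Control and 0 in the other comparisons.

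The 3 groups did not overlap and rose in the order Control, MS, MS+EA in 7 members (3.30%), beside 0.938% of all genes. These were Zfp758, Zfp347, Zfp654, Zfp329, Zfp606, Zfp322a and Zfp397, all of them among the 21. The opposite order was found in Zfp523 and Zfp641 (0.943%), beside 0.992% of all genes. Zfp641 was at 13.8 to 14.7 CPM among Control rats, 12.7 to 13.6 among MS rats and 11.4 to 12.3 among MS+EA rats, and passed in no comparison. The comparisons share rats, so the steps are not independent of each other.

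Of the 10 members with most reads, 1 passed by edgeR's quasi-likelihood test, Zfp207 in MS+EA against Control rats, beside 5.4% of all genes. Zfp238, the repressor Zbtb18 of cortical neuron development, had mean values of 477 ± 19.5, 527 ± 13.8 and 472 ± 91.9 CPM (SD, n = 3) in the Control, MS and MS+EA rats. The MS+EA rats spread from 398 to 575 CPM and overlapped both other groups. Zfp365, which encodes DBZ, a binding partner of DISC1, was at 499 ± 32.6, 513 ± 14.4 and 458 ± 26.8 CPM, with a log2 fold change of -0.16 ± 0.07 in MS+EA against MS rats (adjusted p = 0.369). Zfp91, a ubiquitin ligase of NF-κB signalling, was at 266, 283 and 297 mean CPM and did not pass (0.16 ± 0.06 in MS+EA against Control, adjusted p = 0.146). Zfp148, Zfp644, Zfp292, Zfp445, Zfp532 and Zfp451 did not pass in any comparison by that test either. Zfp292 (0.26 ± 0.08, adjusted p = 0.0675) and Zfp451 (0.27 ± 0.09, adjusted p = 0.0919) were higher in every MS+EA rat than in every Control rat. They passed in 7 and 1 of the 18 alternatives.

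The steadiest genes over the 9 rats were Zfp639, Zfp777, Zfp532, Zfp318 and Zfp251. Zfp639 ranged from 29.6 to 31.9 CPM, an SD of 0.0319 in log2 CPM. The widest spreads were those of Zfp758 (SD 0.607), Zfp36 (0.592), Zfp606 (0.441), Zfp366 and Zfp52. The spread of Zfp36 within groups was nearly as wide (SD 0.564 on the log2 scale), with 9.63, 23.5 and 8.46 CPM in the Control rats.

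By function, the 4 lists of members with a known role held 2, 7, 12 and 15 genes. Of these, 1 passed by edgeR's quasi-likelihood test, in MS+EA against Control, beside 5.4% of all genes. With so few genes, these counts do not set the lists apart from that share. Of the CCCH decay factors, Zfp36 (tristetraprolin) was at 13.9 ± 8.39, 13.1 ± 1.55 and 8.26 ± 3.09 CPM (SD, n = 3) in the Control, MS and MS+EA rats, and every MS+EA rat was below every MS rat. Its log2 fold change in MS+EA against MS was -0.67 ± 0.36 (adjusted p = 0.459). Zfp36l1 was at 35.7 ± 6.41, 46.0 ± 7.83 and 41.5 ± 4.51 CPM, with the groups overlapping. Zfp36l2 had 12 to 31 counts per rat and is not a member. Zfp36 is also an immediate early gene, induced with neuronal activity. All 11 other immediate early genes examined had log2 fold changes below 0 in MS+EA against Control and in MS+EA against MS rats. In MS against Control rats 10 of the 11 were below 0 as well, with a median of -0.247, and none passed. In MS+EA against Control 3 passed, beside 5.4% of all genes. These were Fosb (-1.19 ± 0.26, adjusted p = 0.0256), Junb (-0.90 ± 0.16, adjusted p = 0.0116) and Egr4 (-1.04 ± 0.26, adjusted p = 0.0418).

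Of 7 members acting on RNA, ribosomes or the spindle, Zfp207 passed in MS+EA against Control and the rest did not. Zfp598, the sensor of collided ribosomes, was at 27.9, 25.4 and 27.1 mean CPM in the 3 groups, and Zfp346, a binder of double-stranded RNA, at 26.1, 26.3 and 22.1. Zfp330, Zfp593 and Zfp830 overlapped between Control and MS+EA rats.

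None of 12 members with known roles in neurons or glia passed in any comparison by edgeR's quasi-likelihood test. Zfp191 was listed only under its current symbol, Zfp24, and so was left out of the 12. That gene did not pass in any comparison by this test either. In MS+EA against Control, where 5.4% of all genes passed, Zfp292 passed in 7 of the 18 alternatives and Zfp423 in 2. Zfp711, an X-linked gene of intellectual disability, was nearest, at 9.15, 8.11 and 7.59 CPM among Control rats, 9.74, 10.4 and 10.8 among MS rats and 11.9, 12.5 and 10.2 among MS+EA rats. The Control rats were below all others, and the log2 fold change of MS+EA against Control was 0.48 ± 0.14 (adjusted p = 0.0624). Zfp292, another gene of intellectual disability, was at 143, 156 and 172 mean CPM in the 3 groups (0.26 ± 0.08 in MS+EA against Control, adjusted p = 0.0675). Zfp189, linked to resilience to stress in mouse prefrontal cortex, was at 19, 24.1 and 51.7 CPM among Control rats, 28.5, 23.8 and 30.8 among MS rats and 28.9, 30.4 and 33.4 among MS+EA rats. Control rat 6 was far above all others, and the group means of 31.6, 27.7 and 30.9 CPM differed by less than the spread. Zfp804a, near a risk variant of schizophrenia, was at 15.3, 14.9 and 17.2 mean CPM. Zfp462, Zfp488, Zfp536 and Zfp609 had log2 fold changes of -0.22 to 0.33 over the 3 comparisons.

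None of the 15 members on the chromatin list passed either by edgeR's quasi-likelihood test. The list is a broad one and also holds Zfp91, the ubiquitin ligase named above. In MS+EA against Control, where 5.4% of all genes passed, Zfp518a passed in 2 of the 18 alternatives and Zfp451 in 1. Zfp518a had mean values of 17.2, 23.5 and 23.5 CPM in the Control, MS and MS+EA rats, with a log2 fold change of 0.44 ± 0.13 in MS against Control (adjusted p = 0.205) and 0.45 ± 0.13 in MS+EA against Control (adjusted p = 0.0613). Zfp57, which keeps imprinted regions methylated, was at 12.5, 13.0 and 11.8 mean CPM, and Zfp746, the parkin substrate PARIS, at 42.0, 38.8 and 38.2. Zfp217, Zfp219, Zfp281, Zfp410 and Zfp516 had overlapping Control and MS+EA rats.

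**Figure D4:**
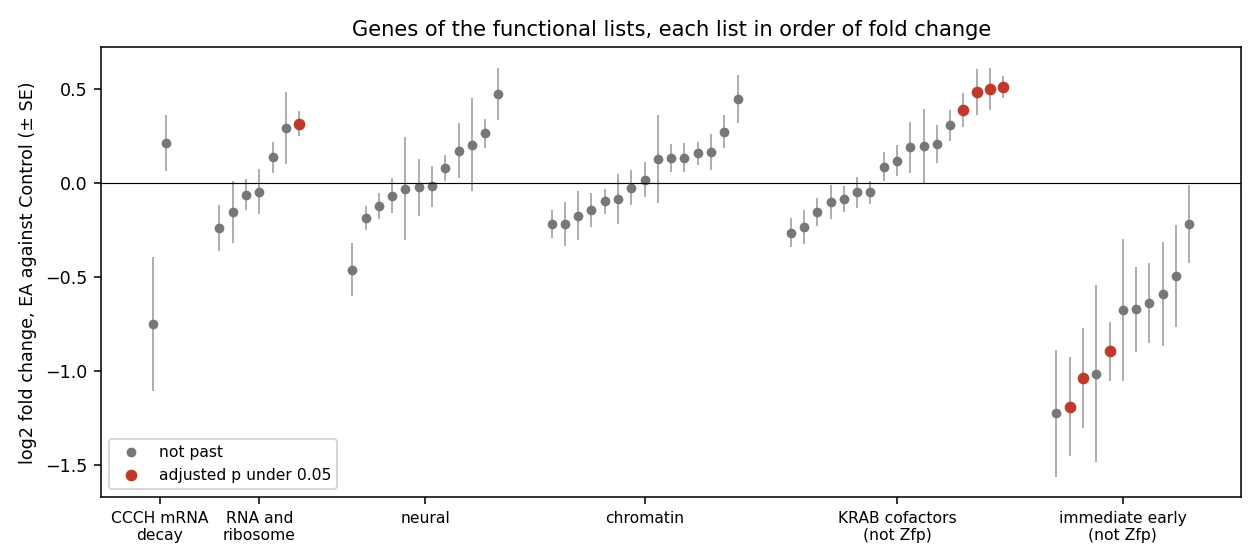
Log2 fold change of MS+EA against Control rats (vertical axis, bars are ± SE) for the Zfp genes of 4 functional lists and for 2 lists of other genes, in order of size within each list (horizontal axis). Zfp207 is the only red point among the Zfp genes; 4 KRAB cofactors lie above 0 and 3 immediate early genes below 0 in red, at an adjusted p under 0.05.

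The partners of KRAB zinc finger proteins were counted beside them. Of 17 such genes, 4 passed in MS+EA against Control rats, beside 5.4% of all genes, and all 4 were higher. They were Fam208a (TASOR, of the HUSH silencing complex) with a log2 fold change of 0.51 ± 0.06 (adjusted p = 0.00297), Mphosph8 (also of HUSH) with 0.49 ± 0.12 (adjusted p = 0.0426), Cbx3 (heterochromatin protein HP1 gamma) with 0.50 ± 0.11 (adjusted p = 0.0255) and Atrx with 0.39 ± 0.09 (adjusted p = 0.0332). The central corepressor Trim28 had a log2 fold change of -0.15 ± 0.07 (adjusted p = 0.237) and the methyltransferase Setdb1 one of 0.12 ± 0.08 (adjusted p = 0.427). In the same comparison 10 of the 17 had a log2 fold change above 0 and 7 below 0. At an unadjusted p under 0.05, 5 were higher and 2 lower, beside 11.9% and 10.6% of all genes. The 2 lower ones were Chd3 (-0.26 ± 0.08, adjusted p = 0.0624) and Dnmt1 (-0.23 ± 0.09, adjusted p = 0.154). None of the 17 passed in the other comparisons. The median log2 fold change of the 17 was 0.12 in MS+EA against Control, beside 0.06 over the Zfp genes.

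Other gene families were counted in the same way in MS+EA against Control, where 5.4% of all genes passed. They were taken by the symbol used in the counts. Members since renamed to Zbtb, Zscan or Zkscan symbols, such as Zfp238, were therefore not counted in those families. Of 35 Zbtb genes with at least 450 counts 2 passed, both higher, and the median log2 fold change was -0.08. Of 12 Zscan and Zkscan genes 0 passed by edgeR's quasi-likelihood test, 1 at an unadjusted p under 0.05, and the median was 0.03. Of 33 Trim genes, which mostly encode RING finger ubiquitin ligases, 2 were higher and 2 lower, with a median of -0.03. The difference between these families and the Zfp genes was not tested.

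Members often lie side by side. RefSeq matched 203 members by symbol and 8 by an older symbol, and Zfp966 was not matched. In 28 pairs, formed by 49 members, the next protein-coding gene was also a member, among them the run Zfp560, Zfp26, Zfp426, Zfp266 and Zfp846. Their log2 fold changes in MS+EA against Control lay between -0.05 and 0.21 along the run. Of the 21 members that passed, only Zfp329 was in such a pair. The spans of 44 members overlap another protein-coding gene, 6 of them among the 21 (Zfp329, Zfp458, Zfp606, Zfp40, Zfp780b and Zfp800), so that their counts may hold reads of the other gene.

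The promoter table held 229 starts of 178 members. Over the 250 bases before them the median share of G and C was 55.6%, beside 59.2% for the starts of genes tested and 51.2% for all 33469 starts. The starts of 19 of the members that rose had a median of 51.2%. Across the 178 members the Spearman correlation of this share with the log2 fold change of MS+EA against Control was -0.14, beside -0.09 across 10573 genes tested. The points share libraries, and genes are not independent replicates.

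Shares of motifs are given over genes with a match on either strand before any of their starts, in the order of the members, the genes tested and all genes of the table. GGGCGG was found in 43.3%, 58.3% and 33.5%, CCAAT in 39.9%, 36.1% and 36.1%, and GGAAGTG in 21.3%, 12.2% and 9.02%. ACTACAA, part of an element often found next to sites of ZNF143, was found in 7.30%, 3.76% and 3.20%. TATAAA was found in 8.99%, 7.43% and 14.1%, CACGTG in 7.87%, 8.37% and 6.18%, and TGACGTCA in 2.81%, 2.92% and 1.78%. Among the 19 members that rose, CCAAT was found in 8, GGGCGG in 7, GGAAGTG in 3, and ACTACAA in 2, Zfp458 and Zfp606. A match is a description of the letters and not of binding, and no motif overlaps another by its own letters in the windows shown.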

How the data were processed

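Total RNA of the frontal cortex of 9 rats had been sequenced after depletion of ribosomal RNA. Per the labels, the authors mapped the reads to Rnor_6.0 with HISAT2 2.0.4 and deposited whole-number counts per gene without normalization. The counting program, its strand setting and the treatment of reads with several locations are not given in the sources used here. Groups were taken from the sample labels. Counts were normalized by TMM, filtered with filterByExpr (minimum count 10) and fitted in edgeR 4.0.16 (R 4.3.3) with a mean per group over all 9 rats. The biological coefficient of variation was 12.7%. The quasi-likelihood F test was adjusted by the Benjamini-Hochberg method over 16837 genes, with 0.05 as threshold. The study used EBSeq. Each SE was derived as the fold change on the log2 scale over √F. With 3 rats against 3, an exact permutation test of a single gene cannot go below p = 0.1.

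The procedures were tested on simulated data. Alternatives were DESeq2 1.42.0, limma-trend (3.58.1), other scalings, other filters, fewer rats and each rat left out. Tables and plots used Python with pandas and matplotlib. Named were, per comparison and direction, the members with the smallest p among groups without overlap (up to 8, or up to 15 past the threshold), members of the functional lists, the 10 with the highest CPM, those next to the count limit and those of extreme spread. Other named members were chosen after their values were seen: Zfp110, Zfp191, Zfp455 and those of the neighbouring run. So were Zfp280d, Zfp322a, Zfp386, Zfp397 and Zfp780b, which are past the limit of 15. The members, lists and motifs were chosen with earlier results of these data known. Promoter sequences are RefSeq's on GRCr8. Protein sequences were not used here.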

Additional observations from a re-analysis of the deposited data

How the results depend on the processing

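The number of Zfp genes past an adjusted p under 0.05 in MS+EA against Control, 21 by edgeR's quasi-likelihood test, was 7 with a fold change above 1.5 as well, 28 by DESeq2, 21 by limma-trend, and between 5 and 20 with 1 rat left out. Over all genes the counts were 910, and in the same order 230, 1476, 908, and between 112 and 951. In MS against Control it was 0, but 3 by DESeq2 and 2 with a filter of at least 1 count, where all genes gave 184 and 335 calls in place of 4, and in MS+EA against MS it was 0 in every alternative. The median log2 fold change of the members moved by more than the spread between rats under some scalings. With limma-trend and quantile normalization it was 0.0019 in MS against Control, 0.0294 in MS+EA against MS and 0.0289 in MS+EA against Control. With total counts it was 0.0858 in MS+EA against MS and 0.0857 in MS+EA against Control, and with mRNA genes only 0.0667 and 0.0776. With 1 rat left out the medians lay between 0.0038 and 0.0291 in MS against Control, 0.015 and 0.0572 in MS+EA against MS, and 0.0239 and 0.078 in MS+EA against Control. Over all genes, the median by limma-trend was -0.0207 in MS against Control, -0.0062 in MS+EA against MS and -0.0303 in MS+EA against Control. With total counts the median over all genes was 0.0432 in MS+EA against MS and 0.0337 in MS+EA against Control. With mRNA genes only it was 0.011 and 0.0094. The cause of the shifts was not tested. No result changed sign past its threshold. No paired analysis was possible because each group had its own animals and the groups compared share at most 1 replicate number. The shallower MS+EA libraries limit the genes with few counts.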
